A study of Mus musculus with 5 samples.

Results

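GSK 690693 and Compound C, the pair of compounds in this series that are known to inhibit AMP-activated protein kinase (AMPK), were compared directly, as log2 signal on the GSK 690693 array minus log2 signal on the Compound C array. They make up 2 of the 5 arrays of the series, and they were taken by their titles and not by any measured value. All 5 arrays hold RNA of mouse embryonic fibroblasts that are STING-/- and were reconstituted with the STING R284S variant, taken after 9 hours with GSK 690693, Compound C, tofacitinib, doxorubicin or vehicle. The labels describe the cells as primary, give 1 treatment text for all arrays, and state 300 ng of total RNA per sample. The vehicle cells carry the same knockout and the same variant as the treated cells, so neither is varied here. No dose is stated in the labels, so the pair cannot be said to have been compared at matched doses, and the labels name no vehicle substance. Each group is a single array, so replicate spread is unknown, nothing could be tested, and each difference below is between single arrays. A difference of 1 on the log2 scale is 2-fold.

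AMPK is a trimer of a catalytic alpha, a scaffolding beta and a gamma subunit that binds AMP, and it is switched on when cellular energy runs low. Compound C, or dorsomorphin, occupies the ATP site of AMPK but also that of the type I receptors for bone morphogenetic proteins (BMPs), which phosphorylate SMAD1, SMAD5 and SMAD9 and so drive transcription of the Id genes. GSK 690693 is an ATP-competitive inhibitor of the AKT kinases, which keep FOXO transcription factors out of the nucleus. It also inhibits AMPK and, besides AKT, further kinases of the AGC group, to which AKT belongs. STING is the membrane adaptor that carries the signal of cytosolic DNA to TBK1 and IRF3, and R284S is a gain-of-function form of it.

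On the side where GSK 690693 read higher were BMP target genes, mitotic and DNA replication genes and genes of ribosome production. On the side where it read lower were the Nr4a nuclear receptors and other cyclic AMP targets and p53 target genes, with some sterol and amino acid stress genes. Of 12311 genes that passed the filter on dim signal, 337 (2.74%) were at least 2-fold higher with GSK 690693 than with Compound C and 162 (1.32%) at least 2-fold lower. At 1.5-fold the counts were 1375 genes higher (11.2%) and 638 lower (5.18%), and by any amount 53.6% of genes were higher and 45.2% lower. These shares are the background against which the gene lists below are read. The excess of higher over lower genes depended on the scale. The median difference over the filtered genes was 0.03 on the deposited values and -0.10 when each array was centred on the median of those genes, and the 2-fold counts were then 211 higher and 217 lower. A list median below is therefore uncertain by that shift of 0.13, and the lists whose sign turns under it are named as such. The 2-fold genes nearest the threshold stood at 1.0 and -1.0, and the nearest outside it at 0.99 and -0.99.

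**Figure D1:**
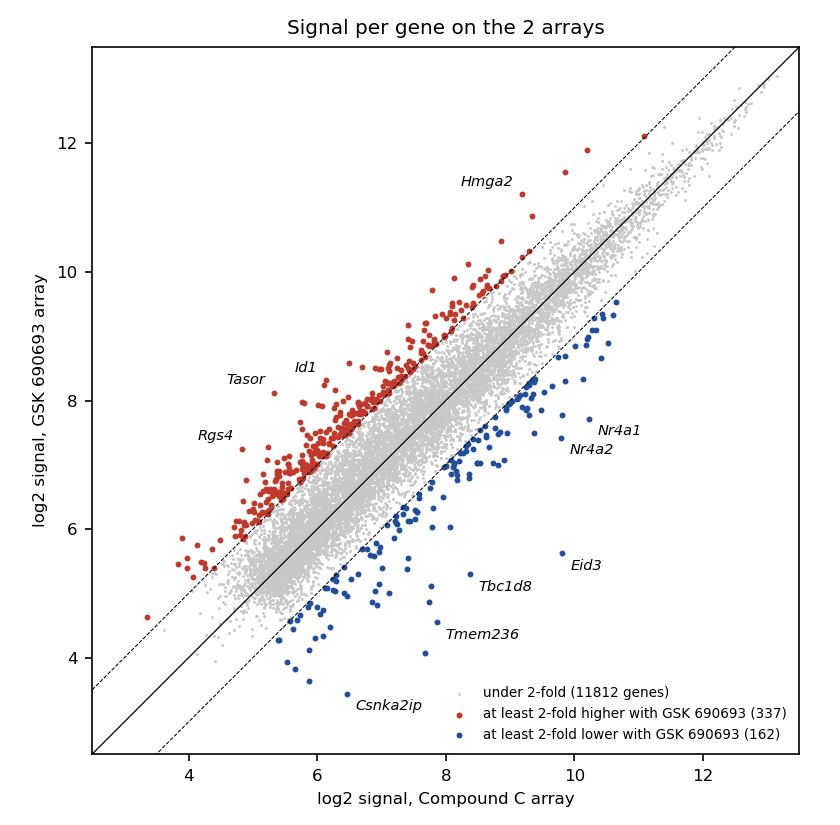
Log2 signal of 12311 genes on the GSK 690693 array (vertical) against the Compound C array (horizontal), 1 point per gene, with the line of equality and dashed lines at 2-fold. The 337 red genes lie at least 2-fold above equality and the 162 blue genes at least 2-fold below, and Eid3 lies farthest out at 5.63 with GSK 690693 and 9.81 with Compound C.

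The standard deviation of the difference over filtered genes was 0.452 for GSK 690693 against Compound C, the fourth smallest among the 10 pairs of arrays. The smallest, 0.258, was that of GSK 690693 against tofacitinib, and GSK 690693 stood at 0.306 from vehicle and Compound C at 0.455 from vehicle. Most of the 2-fold differences between the compounds lay on the Compound C side. Of the 337 genes that read higher with GSK 690693, 24 were farther from vehicle on the GSK 690693 array, 312 on the Compound C array, and 1 was equally far. Of the 162 that read lower, the GSK 690693 array was farther from vehicle in 23 and the Compound C array in 139. Put another way, 4 of the 337 genes were at least 2-fold above vehicle with GSK 690693, whereas 170 were at least 2-fold below vehicle with Compound C. Among the 162 genes, 7 were at least 2-fold below vehicle with GSK 690693 and 93 at least 2-fold above it with Compound C. Without the vehicle array, with the mean of the doxorubicin and tofacitinib arrays as the third point, Compound C was the farther in 269 of the 337 and in 144 of the 162. Compound C was the lowest of all 5 arrays in 273 of the 337 and the highest in 150 of the 162. GSK 690693 was the highest in 137 of the 337 and the lowest in 53 of the 162. Over all filtered genes Compound C was lowest in 28.7% and highest in 18.4%, and GSK 690693 was lowest in 14.7% and highest in 14.0%. The 2-fold genes were selected on the difference between these arrays, which by itself makes either array more often an end. Some of the 162 genes, such as Csnka2ip, passed the filter on the Compound C array alone, which fixes Compound C as their highest array.

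The fibroblast identity of the cells was visible on both arrays. All 14 fibroblast markers passed the filter, with a median log2 signal of 10.22 with GSK 690693 and 9.82 with Compound C. The intermediate filament gene Vim read 12.67 with GSK 690693 and 12.49 with Compound C, and the collagen gene Col1a1 10.97 and 10.66 in the same order. Pdgfrb, a receptor for platelet-derived growth factor, was the marker that differed most, at 10.03 with GSK 690693 and 8.66 with Compound C. Of the 14 markers, 7 read higher with GSK 690693 and 7 lower, and the median difference was 0.035. Fap (-0.71) was at least 1.5-fold lower. Of 10 macrophage markers 3 passed the filter (Cd68, Cd14 and Csf1r), while the leukocyte antigen gene Ptprc read 3.76 with GSK 690693 and 3.78 with Compound C, below the array median of 5.38. The summed linear signal of the macrophage list was 335 with GSK 690693, 360.5 with Compound C and between 320.1 and 457 on the other arrays. Of the 8 endothelial markers Kdr and Cdh5 passed the filter, and Pecam1 read 4.68 with GSK 690693 and 5.01 with Compound C. Of the skeletal muscle markers 7 of 9 passed, of the epithelial 5 of 7, and of the neuron and adipocyte markers 5 of 8 each. The median log2 signals of these lists with GSK 690693 ran from 5.045 to 5.76. The skeletal muscle actin gene Acta1 read 9.35 with GSK 690693 and 9.59 with Compound C. In RNA from whole cultures, fewer cells of a kind and less RNA per cell cannot be told apart.

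In each of the 15 largest differences on the lower side Compound C was the highest of the 5 arrays. Eid3, which encodes a subunit of the SMC5/6 complex and an inhibitor of the acetyltransferase EP300, read 5.63 with GSK 690693 and 9.81 with Compound C, against 5.59 with tofacitinib, 5.06 with doxorubicin and 5.47 with vehicle. The difference of -4.18 is 18.1-fold, and the GSK 690693 value lay within 0.16 of vehicle. Tmem236 read 4.55 with GSK 690693 and 7.87 with Compound C, against 4.39 to 5.0 on the other arrays. Tbc1d8, a gene of the Rab GTPase-activating family, read 5.30 with GSK 690693 and 8.38 with Compound C, against 5.48 to 6.22 elsewhere. Csnka2ip was dim with GSK 690693, at 3.44, and read 6.47 with Compound C. It reached the filter on the Compound C array alone, as its other values were 3.42, 3.66 and 3.60. Tmem236, Upk1a and Grhl3 also reached it on that array alone, as their other values lay below 5.37. For these genes the filter itself fixes Compound C as the highest array. Compound C also stood above the other arrays for Upk1a (-2.11), which encodes a uroplakin, Kcne4 (-2.04), a potassium channel subunit, Insyn2a (-2.02), the epidermal transcription factor gene Grhl3 (-1.98) and Plek2 (-1.87).

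In the opposite direction, Tasor, the scaffold of the HUSH silencing complex, read 8.12 with GSK 690693 and 5.33 with Compound C, against 8.21 with tofacitinib, 6.97 with doxorubicin and 8.17 with vehicle, a difference of 2.79 or 6.92-fold. Rgs4, a brake on G protein signalling, read 7.25 with GSK 690693 and 4.83 with Compound C, where vehicle stood at 7.54. Among the 15 largest differences on this side were several factors of gene expression. Gtf2b, the general transcription factor TFIIB, read 7.98 with GSK 690693 and 5.77 with Compound C, and vehicle stood at 7.59. Ppp1r10, a nuclear targeting subunit of protein phosphatase PP1, read 8.24 with GSK 690693, 6.10 with Compound C, 5.87 with doxorubicin and 7.91 with vehicle. For this gene doxorubicin was lower than Compound C. Polr3e, a subunit of RNA polymerase III, differed by 1.92, Pcgf6, a Polycomb component, by 1.86, and Hmga2, an architectural chromatin protein gene, by 2.03, with 11.21 on the GSK 690693 array and 9.18 on the Compound C array. Heatr3 (2.08), Dhrs9 (2.04), the histone gene H2ac20 (1.97), the matricellular gene Ccn4 (1.94) and Ankrd49 (1.89) completed this end, together with Psmg2, a chaperone of proteasome assembly, at 2.16. Psmg2 has a second, dimmer probe set that read 2.40 with GSK 690693 and 2.30 with Compound C. Of the 499 genes past 2-fold in either direction, 21 had more than 1 probe set, and in 0 of them was the second one also 2-fold apart in that direction. In 6 of the 21 the second probe set reached the lower of the array medians on either array.

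**Figure D2:**
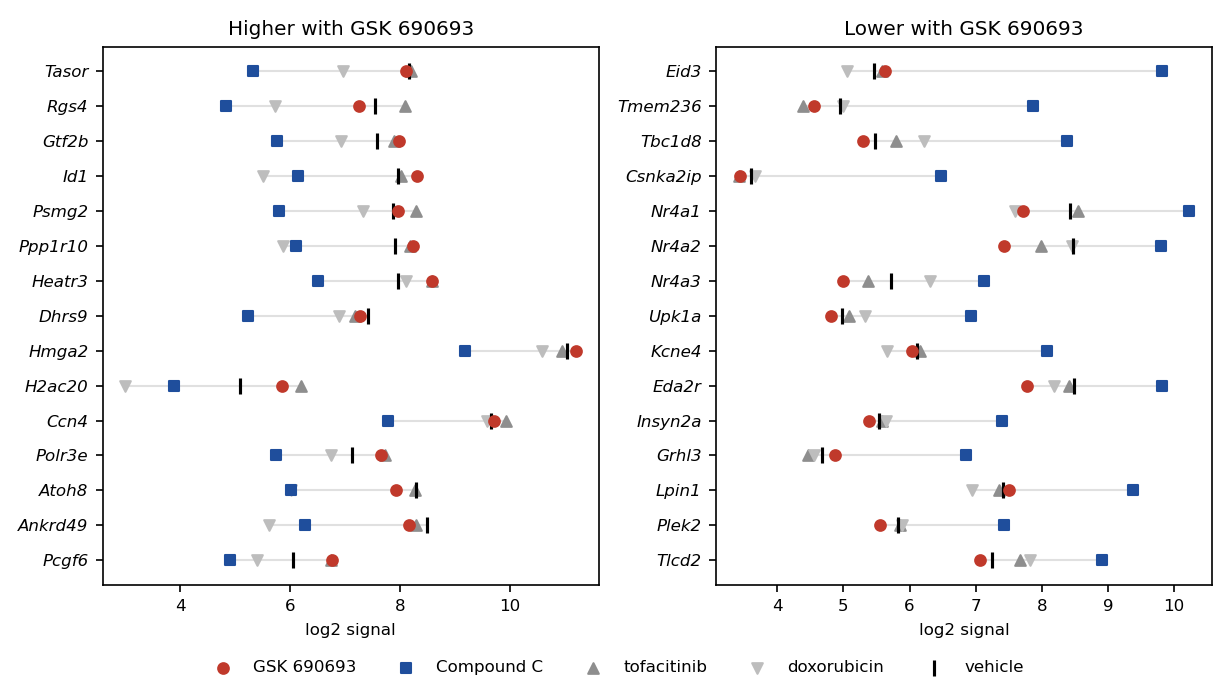
Log2 signal on each of the 5 arrays for the 15 largest differences with a descriptive symbol on either side, genes from largest to smallest down the page. In the left panel the Compound C square is the lowest or second-lowest of each row (Tasor 5.33, GSK 690693 8.12), and in the right panel it stands at the high end of each row (Eid3 9.81, GSK 690693 5.63).

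Transcripts of BMP target genes differed between the compounds. Of 30 filtered genes on a list of BMP and SMAD targets and regulators, 12 (40%) were at least 1.5-fold higher with GSK 690693 than with Compound C and 1 (3.33%) at least 1.5-fold lower, where the background was 11.2% and 5.18%. The list median was 0.34, and it lay between 0.21 and 0.36 under the scalings and filters tried. Id1, an inhibitor of basic helix-loop-helix factors and a direct SMAD target, read 8.32 with GSK 690693 and 6.14 with Compound C, against 8.02 with tofacitinib, 5.51 with doxorubicin and 7.97 with vehicle. GSK 690693, tofacitinib and vehicle were close together for Id1, and Compound C and doxorubicin lay below them. Id3 read 9.02 with GSK 690693, 7.74 with Compound C, 5.94 with doxorubicin and 8.98 with vehicle. Id2 read 9.02 with GSK 690693, 8.16 with Compound C, 6.96 with doxorubicin and 9.12 with vehicle. The inhibitory SMAD genes behaved likewise. Smad6 read 7.49 with GSK 690693 and 5.97 with Compound C, against 7.56 with tofacitinib, 6.07 with doxorubicin and 7.32 with vehicle. Smad7 read 8.68 with GSK 690693, 7.87 with Compound C, 6.0 with doxorubicin and 8.19 with vehicle. It lay above vehicle with GSK 690693 and below it with Compound C. Smad9, the receptor-activated SMAD that is itself a BMP target, read 6.90 with GSK 690693, 5.38 with Compound C, 5.0 with doxorubicin and 7.0 with vehicle. The helix-loop-helix genes Atoh8 (1.92) and Hes1 (1.66) also read higher with GSK 690693. Atoh8 stood at 6.01 with both Compound C and doxorubicin, and Hes1 at 6.29 and 5.27 in that order. Doxorubicin was the lowest array for Id1, Id2, Id3, Smad7, Smad9 and Hes1, so the low values were not particular to Compound C. Atf3 (-1.46), a stress-responsive factor that also belongs to the amino acid stress list, was the member at least 1.5-fold lower.

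The receptor genes showed little of this. Among 15 receptor and coreceptor genes of the BMP, activin and VEGF families, 2 (13.3%, near the background of 11.2%) were at least 1.5-fold higher with GSK 690693 and 0 lower. They were Bmpr1b, a type I BMP receptor, at 7.54 with GSK 690693 and 6.91 with Compound C, and Kdr, the VEGF receptor, at 6.26 and 5.14 in that order. Of the other type I receptor genes, Acvr1 differed by -0.10 and Bmpr1a by 0.02, and the type II receptor gene Bmpr2 differed by -0.32. The activin receptors Acvr1b (-0.58) and Acvr2a (-0.54) were at the low end, and the median of the 15 was -0.10.

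As 12 of the 30 listed BMP genes read at least 1.5-fold higher with GSK 690693, the whole list's promoters were searched for GGCGCC. It is a GC-rich letter pattern that SMADs can bind. The pattern is its own reverse complement, so a match counts for both strands. Windows of 250 bases before to 50 after each gene's start were taken from RefSeq, build GRCm38.p6, where 18 of the 30 genes had one. The pattern was found in 8 of the 18 (44.4%), against 2378 of 9698 filtered genes with a window (24.5%). Among all genes at least 2-fold higher with GSK 690693 that had a window, 52 of 265 (19.6%) held it, and among those at least 2-fold lower 21 of 125 (16.8%). Of the 8 listed genes with the pattern, Smad9, Id2 and Id4 were among the 12 that read higher. Gata2 (0.53), Grem1 (0.29), Smurf2 (-0.05), Hey2 (-0.29) and Ski (-0.50) were not. A match is a description of letters and not a binding site. The windows shown are those of the list's largest differences that hold it, with the match in capitals: Smad9 at chr3:54755332-54755631 (+ strand), Id2 at chr12:25096043-25096342 (- strand) and Id4 at chr13:48260866-48261165 (+ strand). It starts 51 bases before the start site in Smad9, 231 before it in Id2 and 148 before it in Id4, and the differences of these genes were 1.52, 0.86 and 0.84.
Smad9: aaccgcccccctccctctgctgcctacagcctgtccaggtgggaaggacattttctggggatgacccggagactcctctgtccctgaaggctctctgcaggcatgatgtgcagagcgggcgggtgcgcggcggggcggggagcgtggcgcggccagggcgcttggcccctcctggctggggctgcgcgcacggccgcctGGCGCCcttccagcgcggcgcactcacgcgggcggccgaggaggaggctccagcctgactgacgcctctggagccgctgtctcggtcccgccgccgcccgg
Id2: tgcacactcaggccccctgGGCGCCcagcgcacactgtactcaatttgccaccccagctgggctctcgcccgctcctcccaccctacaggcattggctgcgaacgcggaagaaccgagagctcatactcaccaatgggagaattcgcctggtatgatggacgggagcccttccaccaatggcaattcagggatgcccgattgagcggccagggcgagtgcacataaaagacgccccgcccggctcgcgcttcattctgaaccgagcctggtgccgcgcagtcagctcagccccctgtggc
Id4: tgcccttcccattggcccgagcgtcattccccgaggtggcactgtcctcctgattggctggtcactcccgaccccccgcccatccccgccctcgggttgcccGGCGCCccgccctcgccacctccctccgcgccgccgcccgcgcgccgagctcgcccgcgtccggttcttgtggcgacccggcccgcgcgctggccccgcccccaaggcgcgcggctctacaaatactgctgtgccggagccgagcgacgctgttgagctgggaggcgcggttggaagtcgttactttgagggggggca

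The AKT and FOXO axis, on which GSK 690693 acts, gave differences of either sign, with more FOXO list members lower than higher. Of 38 filtered FOXO target and insulin feedback genes, 3 (7.89%) were at least 1.5-fold higher with GSK 690693 and 8 (21.1%) at least 1.5-fold lower. The background was 11.2% and 5.18%. By any amount 24 of the 38 were lower, and the median was -0.20. Irs1, the adaptor of the insulin and IGF1 receptors, read 8.27 with GSK 690693 and 7.14 with Compound C, against 7.83 with tofacitinib, 6.11 with doxorubicin and 7.48 with vehicle. Its second, dim probe set differed by -0.09. Fbxo32, the ubiquitin ligase gene atrogin-1 and a FOXO target, read 8.28 with GSK 690693 and 7.10 with Compound C, with 7.53 in vehicle. For both genes GSK 690693 was the highest of the 5 arrays. Other members of the list were higher with Compound C. Foxo3 itself read 7.27 with GSK 690693 and 8.67 with Compound C, against 7.30 in vehicle. The death-associated kinase gene Dapk1 read 7.03 with GSK 690693 and 8.73 with Compound C, and Ypel2 read 6.16 and 7.53 in the same order. Irs2 stood above vehicle on both arrays, at 7.65 with GSK 690693 and 8.01 with Compound C against 7.05, while tofacitinib stood at 6.52. Foxo1 (-0.03), Pik3ip1 (-0.11), Sesn3 (-0.57) and Sesn1 (-0.53) differed by less than 1.5-fold. The second probe set of Foxo1 read 6.57 with GSK 690693 and 7.18 with Compound C, a difference of -0.61 that passes 1.5-fold. The target kinases themselves were close, with Akt1 at 10.24 with GSK 690693 and 10.30 with Compound C and Akt2 at 7.86 and 8.12. Among 29 components of PI3K, AKT and mTOR signalling 4 (13.8%) were at least 1.5-fold higher and 2 (6.9%) lower. These shares were near the background of 11.2% and 5.18%. The higher members included the AKT-related kinases Sgk3 (0.94) and Sgk1 (0.67) and the S6 kinase gene Rps6kb2 (0.70). The lower ones were Ddit4 (-0.87) and the regulatory subunit gene Pik3r1 (-0.78). The median of this list was 0.05 and turned to -0.08 on centring.

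Genes of AMPK, the shared target, differed in the alpha subunits. Prkaa2, the alpha 2 catalytic subunit, read 6.99 with GSK 690693 and 8.81 with Compound C, against 6.86 with tofacitinib, 7.18 with doxorubicin and 6.16 with vehicle, so all compounds lay above vehicle and Compound C farthest. Prkaa1, the alpha 1 subunit, read 10.52 with GSK 690693 and 9.97 with Compound C, the lowest of the 5 values, with 10.67 in vehicle. The beta and gamma subunit genes that passed the filter differed by between -0.21 (Prkag1) and 0.40 (Prkag2). Ulk1, the autophagy kinase that AMPK and mTOR phosphorylate, read 8.57 with GSK 690693 and 9.38 with Compound C, with 8.82 in vehicle. Of the AMPK-related kinases, Nuak1 (1.31) and Melk (1.12), a kinase gene of dividing cells, read higher with GSK 690693, and Sik1 (-0.73), a cyclic AMP target, and Mark4 (-0.61) lower. The 26 genes of the AMPK family and its partners had a median of -0.01, which was 0.01 without the filter.

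In the inflammatory programme some interferon-stimulated genes had close values with the compounds and others differed. Of 82 such genes, 7 (8.54%) were at least 1.5-fold higher with GSK 690693 and 10 (12.2%) at least 1.5-fold lower, with a median of -0.09. The background was 11.2% higher and 5.18% lower, so the lower share stood above it. The list stood below vehicle on both arrays, with a median of -0.52 for GSK 690693 and -0.40 for Compound C, values that share the vehicle array. Ifit1, which encodes a sensor of foreign RNA caps, read 10.80 with GSK 690693 and 10.72 with Compound C, against 11.61 in vehicle. Isg15, the ubiquitin-like modifier, read 9.98 with GSK 690693 and 10.07 with Compound C, against 10.71 in vehicle. In contrast to these, Cxcl11, a ligand of CXCR3, read 7.90 with GSK 690693 and 9.19 with Compound C, against 9.39 with tofacitinib, 9.12 with doxorubicin and 9.52 with vehicle. GSK 690693 was the only array on which Cxcl11 lay more than 2-fold below vehicle. Mx2, a dynamin-like antiviral GTPase, read 5.72 with GSK 690693 and 6.98 with Compound C, while tofacitinib stood at 5.45 and vehicle at 7.09. For Mx2 the GSK 690693 and tofacitinib arrays formed the low end. The largest differences in the other direction were those of Trim30d, of the TRIM family of ubiquitin ligases (6.47 with GSK 690693, 5.24 with Compound C, 7.90 with vehicle), the apolipoprotein L genes Apol9b (1.11) and Apol9a (0.95), and Tlr3, the endosomal sensor of double-stranded RNA (0.94). Apol9a and Apol9b are near-identical neighbours, so their probe sets may share signal. Cxcl10 read 12 with GSK 690693 and 11.52 with Compound C, against 12.47 in vehicle.

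The interferon-stimulated response element (GAAA, any 2 bases, GAAA), searched on both strands with overlaps allowed, was present in 32 of the 66 interferon-stimulated genes with a RefSeq window (48.5%), against 345 of 9698 filtered genes (3.56%). Among the genes at least 2-fold higher with GSK 690693 that had a window, 9 of 265 (3.4%) held it, and among those at least 2-fold lower 4 of 125 (3.2%).

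The STING pathway itself was measured by 23 filtered genes, of which 3 were at least 1.5-fold higher with GSK 690693 and 4 (17.4%) lower. The lower share stood above the background of 5.18%, and the higher share was near the background of 11.2%. Mavs, the mitochondrial adaptor of RNA sensing, read 9.25 with GSK 690693 and 8.13 with Compound C, with 8.89 in vehicle, and the transcription factor gene Irf3 read 7.13 with GSK 690693 and 6.42 with Compound C, with 6.92 in vehicle. Traf6, a ubiquitin ligase of innate signalling, was on the other side, at 7.66 with GSK 690693 and 8.50 with Compound C. Tbk1 (0.21) and Cgas (0.01) differed by little. The median of the list was 0.10 and turned to -0.03 on centring. Sting1 (5.11 with GSK 690693, 5.13 with Compound C) and Ifnb1 (2.79 with GSK 690693, 2.88 with Compound C) did not pass the filter. Where the Sting1 probes lie relative to the knockout and the introduced variant is not known here, so this value checks neither.

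NF-kB dependent genes differed in both directions. Of 49 genes, 9 (18.4%) were at least 1.5-fold higher with GSK 690693 and 7 (14.3%) lower, and the median of 0.07 turned to -0.06 on centring. The chemokine gene Ccl7, which attracts monocytes, read 12.11 with GSK 690693 and 11.08 with Compound C, with 11.85 in vehicle. Tnfaip2 differed by 0.92. The adhesion molecule Icam1 read 8.04 with GSK 690693 and 9.33 with Compound C, against 8.04 with tofacitinib, 9.26 with doxorubicin and 8.03 with vehicle. Compound C and doxorubicin formed the upper end for Icam1. The hyaluronan receptor gene Cd44 read 9.10 with GSK 690693 and 10.34 with Compound C, with 9.43 in vehicle, and the kinase gene Map3k8 (-1.29) and the nuclear regulator gene Nfkbiz (-1.06) also read lower with GSK 690693. The cytokine gene Il6 read 8.43 with GSK 690693 and 9.13 with Compound C, against 8.52 with tofacitinib, 9.41 with doxorubicin and 9.45 with vehicle. Ccl5 was within 0.02 on both arrays, at 12.93 and 12.95 in a range that ended at 13.18.

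**Figure D3:**
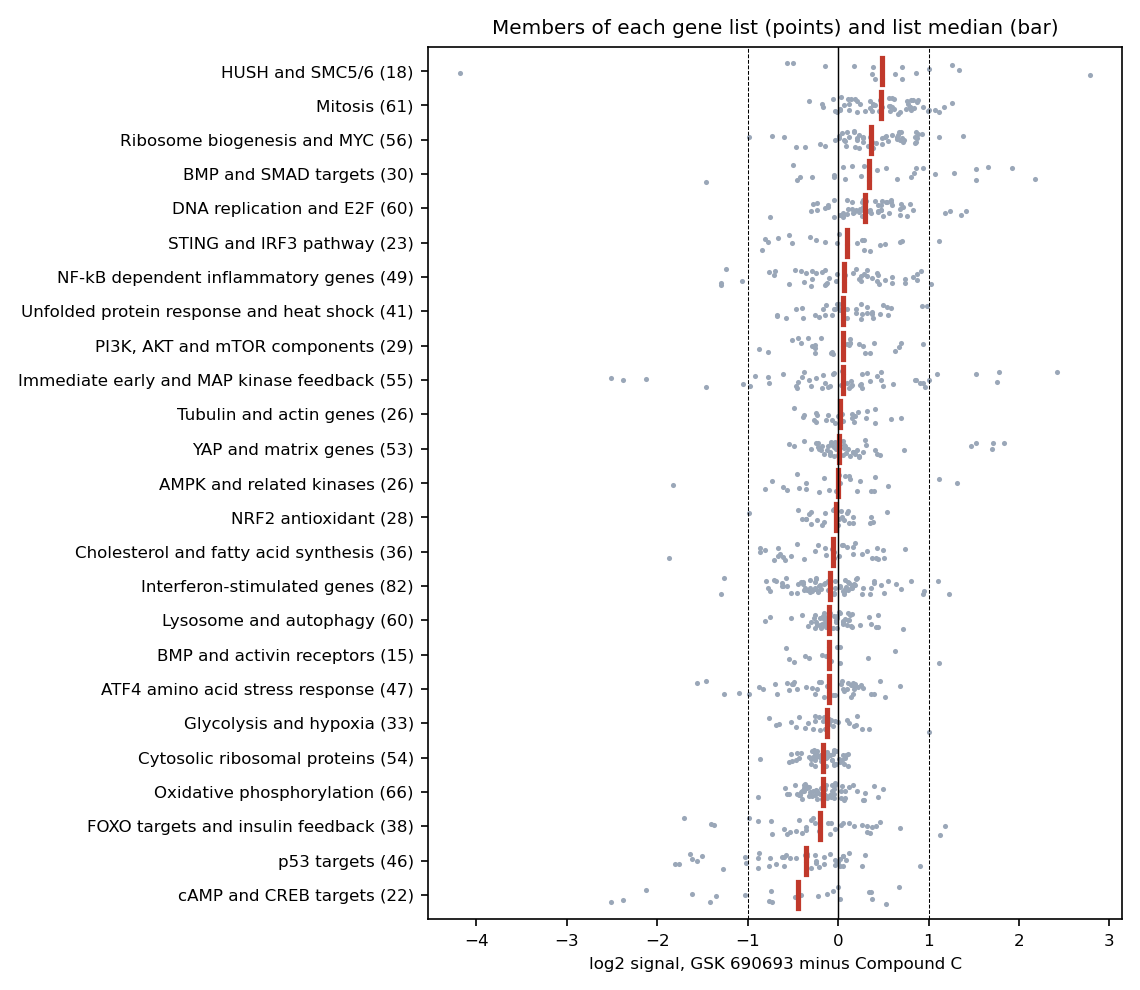
Difference in log2 signal, GSK 690693 minus Compound C, for the filtered members of 25 gene lists (grey points, 1 per gene, number of members in parentheses) with the list median as a red bar and dashed lines at 2-fold. Medians run from -0.45 for cyclic AMP and CREB targets to 0.49 for the HUSH and SMC5/6 list, whose lowest point at -4.18 is Eid3.

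The list with the lowest median was that of cyclic AMP and CREB targets, genes induced through protein kinase A. Of 22 genes, 10 (45.5%) read lower with GSK 690693 by 1.5-fold or more and 1 (4.55%) higher, around a median of -0.45 with a range of -0.57 to -0.31 over the settings tried. The list was led by the 3 Nr4a genes, orphan nuclear receptors of the immediate early class. Nr4a1 read 7.72 with GSK 690693 and 10.23 with Compound C, against 8.54 with tofacitinib, 7.59 with doxorubicin and 8.42 with vehicle, a 5.7-fold difference. Nr4a2 read 7.42 with GSK 690693 and 9.80 with Compound C, against 7.98 with tofacitinib, 8.45 with doxorubicin and 8.47 with vehicle. Nr4a3 read 5.0 with GSK 690693 and 7.12 with Compound C, against 5.37 with tofacitinib, 6.31 with doxorubicin and 5.72 with vehicle. In all of them vehicle stood between the compounds, with GSK 690693 below it by 0.70 to 1.05 and Compound C above it by 1.33 to 1.81. Per1, a clock gene on this list, had that order too, at 8.23 with GSK 690693, 9.65 with Compound C and 8.89 with vehicle. Rgs2, a regulator of G protein signalling, read 5.40 with GSK 690693 and 7.01 with Compound C, with 6.47 in vehicle, on the brighter of its probe sets. The dimmer one differed by 0.05. Dio2, the type 2 deiodinase gene, differed by -1.35, and its second probe set by -0.02. Its brighter probe set passed the filter on the Compound C array alone. Full-length cyclic AMP response elements, TGACGTCA, were in 2 of the 17 listed genes with a RefSeq window (11.8%), Dio2 and Creb5, and in 3.5% of the 9698 filtered genes.

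Immediate early genes as a whole differed in both directions. In a list of 55 such genes and regulators that damp MAP kinases, 12 (21.8%) read at least 1.5-fold higher with GSK 690693 and 10 (18.2%) lower, and the median of 0.05 turned to -0.08 on centring. Besides the Nr4a genes and Atf3, the lower members included Fos (-1.05), a subunit of the AP-1 transcription factor. Hbegf, an EGF receptor ligand, read 10.13 with GSK 690693 and 8.35 with Compound C, with 9.81 in vehicle, and Plaur, the urokinase receptor gene, read 9.18 with GSK 690693 and 7.42 with Compound C, with 8.85 in vehicle. Among YAP target and matrix genes, 6 of 53 (11.3%) were at least 1.5-fold higher, a share near the background, and 0 lower. The median of 0.01 turned to -0.12 on centring. The 6 included Ankrd1 (11.90 with GSK 690693, 10.20 with Compound C, 12.01 with vehicle), Ccn2 (11.56, 9.85 and 11.44 in that order, with a dim second probe set at 0.13) and the hyaluronan synthase gene Has2, which was below vehicle on both arrays, at 9.21 with GSK 690693 and 7.68 with Compound C against 10.26.

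Targets of p53 read lower with GSK 690693. Of 46 genes, 18 (39.1%) were 1.5-fold or more lower and 1 (2.17%) higher, around a median of -0.35 that lay between -0.48 and -0.34 over the settings tried. Against vehicle the list median was -0.18 for GSK 690693 and 0.19 for Compound C. Polk, a translesion DNA polymerase, read 8.33 with GSK 690693 and 10.13 with Compound C, against 8.79 with tofacitinib, 8.11 with doxorubicin and 8.83 with vehicle. The death receptor gene Fas read 7.86 with GSK 690693 and 9.48 with Compound C, with 8.50 in vehicle. Fas thus lay at least 1.5-fold below vehicle on the GSK 690693 array and at least 1.5-fold above it on the other. The thiamine transporter gene Slc19a2 (-1.76), Gtse1 (-1.64), the stress-induced sestrin gene Sesn2 (-1.56) and Perp (-1.50) followed. For Gtse1, whose product restrains p53, the values were 8.89 with GSK 690693, 10.53 with Compound C and 7.79 with doxorubicin. Eda2r, a receptor of the TNF receptor family, was not on the list but among the 15 largest differences, at 7.78 with GSK 690693, 9.81 with Compound C and 8.49 with vehicle.

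**Figure D4:**
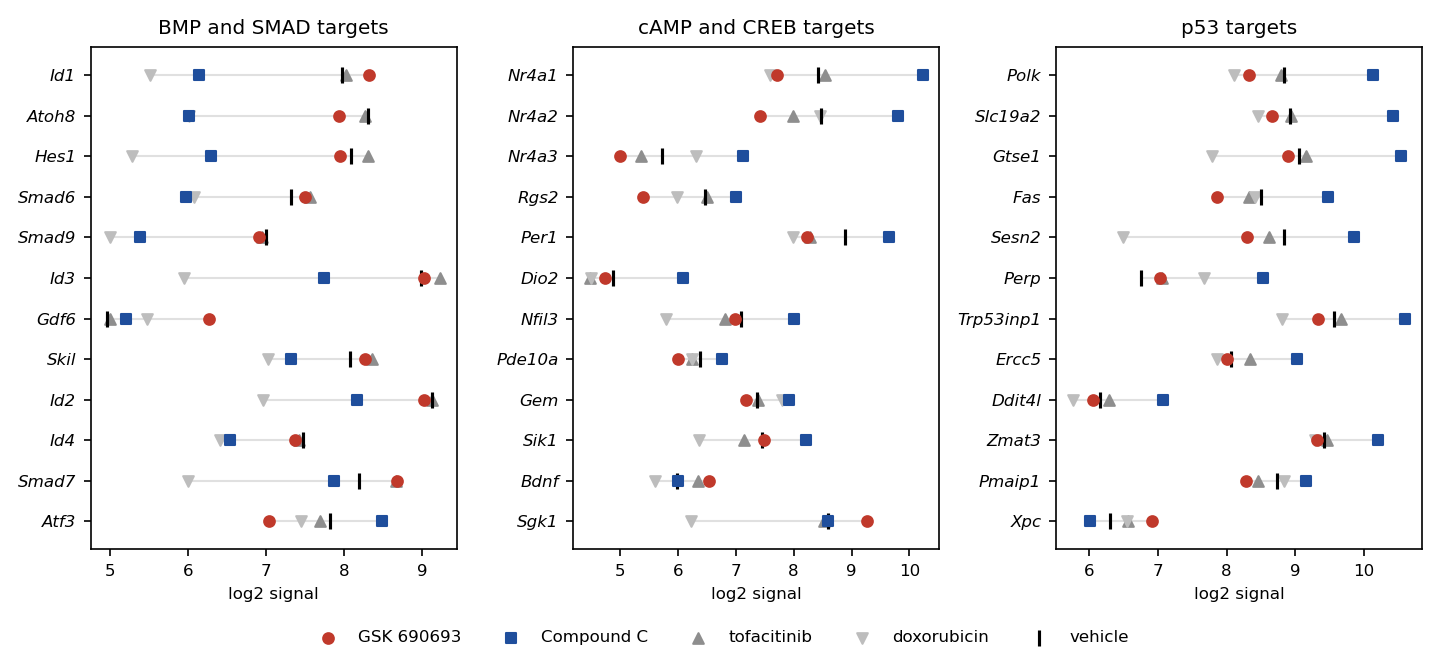
Log2 signal on each of the 5 arrays for the 12 members with the largest absolute difference in 3 lists, ordered down the page from the listed direction to the other. In the BMP panel GSK 690693 lies near vehicle and Compound C below for the first 6 rows (Id1 8.32 and 6.14, vehicle 7.97), and in the cyclic AMP panel vehicle lies between the compounds for the Nr4a genes.

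Among amino acid stress and sterol genes, members past 1.5-fold were mostly lower with GSK 690693 than with Compound C, although both list medians stood above vehicle for either compound. Of 47 ATF4-linked genes, 9 (19.1%) were 1.5-fold or more lower and 1 (2.13%) higher, around a median of -0.10, and the list medians against vehicle were 0.24 for GSK 690693 and 0.29 for Compound C. Ppp1r15a, the phosphatase subunit that reverses the integrated stress response, read 6.90 with GSK 690693 and 8.16 with Compound C, against 6.66 in vehicle. The cationic amino acid transporter gene Slc7a3 read 5.20 with GSK 690693 and 6.30 with Compound C, against 5.0 in vehicle. Slc7a11, the cystine transporter, read 6.14 with GSK 690693 and 7.13 with Compound C, against 5.13 in vehicle, while its second, dim probe set differed by 0.21. Of 36 sterol and fatty acid synthesis genes, 10 (27.8%) read lower with GSK 690693 by 1.5-fold or more and 1 (2.78%) higher, around a median of -0.06. Lpin1, a phosphatidate phosphatase gene, read 7.50 with GSK 690693 and 9.37 with Compound C, against 7.41 in vehicle. The sterol pathway genes Cyp51 (-0.86), Hmgcs1 (-0.81) and Sqle (-0.71) and the sterol carrier gene Stard4 (-0.86) followed, and Nsdhl (0.74), of the same pathway, read higher. Sqle stood at 8.76 with GSK 690693 and 9.47 with Compound C, against 7.96 in vehicle.

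The ATF4 element was searched as TGATGNAA on both strands, with overlapping matches counted. It was in 14 of 38 listed genes with a RefSeq window (36.8%) and in 273 of 9698 filtered genes (2.82%). The median difference was 0.04 for listed genes with the element and -0.18 for those without it, and 8 of the 14 that hold it read higher with GSK 690693. Of the listed genes that hold it, Atf3 (-1.46), Slc7a11 (-0.99) and Herpud1 (-0.68), an endoplasmic reticulum stress gene, differed most, and their windows are shown with the matches in capitals: Atf3 at chr1:191183284-191183583 (- strand), Slc7a11 at chr3:50443564-50443863 (- strand) and Herpud1 at chr8:94386179-94386478 (+ strand). Slc7a11 holds 2 matches, 66 and 47 bases before the start site, and the others hold 1 each, at 110 bases in Atf3 and 112 in Herpud1.
Atf3: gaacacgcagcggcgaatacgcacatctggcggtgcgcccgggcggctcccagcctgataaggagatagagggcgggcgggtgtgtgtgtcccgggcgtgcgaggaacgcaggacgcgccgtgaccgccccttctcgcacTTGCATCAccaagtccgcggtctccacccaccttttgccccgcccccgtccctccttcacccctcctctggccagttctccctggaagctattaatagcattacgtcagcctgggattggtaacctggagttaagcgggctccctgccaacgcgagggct
Slc7a11: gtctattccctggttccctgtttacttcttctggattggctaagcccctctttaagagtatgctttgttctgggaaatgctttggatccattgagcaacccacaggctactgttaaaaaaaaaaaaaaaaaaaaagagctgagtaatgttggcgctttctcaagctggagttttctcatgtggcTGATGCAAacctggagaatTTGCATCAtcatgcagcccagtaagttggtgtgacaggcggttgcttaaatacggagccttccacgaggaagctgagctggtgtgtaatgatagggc
Herpud1: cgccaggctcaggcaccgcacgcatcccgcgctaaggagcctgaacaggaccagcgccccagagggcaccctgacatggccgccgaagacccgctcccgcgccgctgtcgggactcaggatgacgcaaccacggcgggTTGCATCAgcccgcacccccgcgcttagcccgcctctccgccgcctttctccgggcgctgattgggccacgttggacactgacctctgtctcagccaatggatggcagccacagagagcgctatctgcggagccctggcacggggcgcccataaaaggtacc

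Genes of cell division read higher with GSK 690693, which itself stood near vehicle. Of 61 mitosis genes, 24 (39.3%) were 1.5-fold or more higher and 0 lower, and their median of 0.48 lay between 0.35 and 0.48 over the settings tried. Against vehicle the list median was 0.02 for GSK 690693 and -0.45 for Compound C. Kif23, a kinesin of the central spindle, read 7.94 with GSK 690693 and 6.68 with Compound C, against 8.12 with tofacitinib, 7.47 with doxorubicin and 7.92 with vehicle. Plk1, the polo-like mitotic kinase, read 8.27 with GSK 690693 and 7.10 with Compound C, with 8.30 in vehicle, and the spindle checkpoint kinase Ttk read 7.13 with GSK 690693 and 6.06 with Compound C, with 6.74 in vehicle. Top2a, which encodes topoisomerase II alpha, differed by 1.0 and the kinesin gene Kif11 by 0.99. Of 60 DNA replication genes, 13 (21.7%) were higher by that fold and 1 (1.67%) lower, around a median of 0.30. The DNA polymerase alpha genes led, with Pola2 at 8.51 with GSK 690693 and 7.10 with Compound C and the primase gene Prim1 at 7.30 and 5.94, followed by the fork protection gene Tipin (1.24) and Wdhd1 (1.18). Against vehicle the replication list median was 0.125 for GSK 690693 and -0.165 for Compound C. Ribosome biogenesis and MYC-linked genes were higher in 19 of 56 (33.9%) and lower in 3 (5.36%), around a median of 0.36. Against vehicle their median was 0.25 for GSK 690693 and -0.11 for Compound C, so this list lay farther from vehicle with GSK 690693. Polr1b, the second-largest subunit of RNA polymerase I, read 7.15 with GSK 690693 and 5.77 with Compound C, against 7.14 with tofacitinib, 6.73 with doxorubicin and 6.86 with vehicle. Wdr75, a factor of small subunit assembly, differed by 1.12, Myc by 0.86, and Mnt, a repressor that competes with MYC for MAX, by -0.99.

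The cell cycle homology region, searched as TTTGAA on both strands, was in 34 of 50 listed mitosis genes with a RefSeq window (68%), against 1317 of 9698 filtered genes (13.6%). Among all genes with a window it was in 36 of the 265 that were at least 2-fold higher with GSK 690693 (13.6%) and in 11 of the 125 that were at least 2-fold lower (8.8%). The listed genes that hold it and differed most were those named above, Kif23 at chr9:61946750-61947049 (- strand), Plk1 at chr7:122159185-122159484 (+ strand) and Ttk at chr9:83834439-83834738 (+ strand). The match, in capitals, begins 3 bases into the transcribed part in Kif23, 31 in Plk1 and 8 in Ttk, counting the start site as base 1.
Kif23: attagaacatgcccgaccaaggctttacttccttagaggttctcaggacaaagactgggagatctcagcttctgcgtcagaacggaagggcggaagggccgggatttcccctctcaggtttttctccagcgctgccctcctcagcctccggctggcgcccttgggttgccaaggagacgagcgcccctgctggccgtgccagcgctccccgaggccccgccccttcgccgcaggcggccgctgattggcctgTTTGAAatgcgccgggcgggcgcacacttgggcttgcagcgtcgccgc
Plk1: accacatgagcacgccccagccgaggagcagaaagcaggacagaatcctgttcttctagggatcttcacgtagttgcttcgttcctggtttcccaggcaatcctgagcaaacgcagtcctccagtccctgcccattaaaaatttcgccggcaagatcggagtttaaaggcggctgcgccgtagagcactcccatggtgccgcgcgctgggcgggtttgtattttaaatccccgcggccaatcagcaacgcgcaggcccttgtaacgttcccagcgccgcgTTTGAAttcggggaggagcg
Ttk: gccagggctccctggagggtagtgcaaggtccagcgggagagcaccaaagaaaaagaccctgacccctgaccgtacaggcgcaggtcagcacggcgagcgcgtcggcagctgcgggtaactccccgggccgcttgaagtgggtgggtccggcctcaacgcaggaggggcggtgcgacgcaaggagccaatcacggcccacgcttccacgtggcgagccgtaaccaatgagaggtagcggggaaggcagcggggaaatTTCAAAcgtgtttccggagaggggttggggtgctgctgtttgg

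Genes of chromatin silencing stood at both extremes. Their list, like the others, was chosen with earlier results of these data known, and it holds both Tasor and Eid3. Its share and median are therefore a description only. Of 18 filtered genes of the HUSH and SMC5/6 complexes and their partners, 8 (44.4%) were at least 1.5-fold higher with GSK 690693 and 1 lower, with a median of 0.49. Besides Tasor they included Setdb1, the histone methyltransferase recruited by HUSH, at 7.23 with GSK 690693 and 5.97 with Compound C with 6.79 in vehicle, and Slf1, which links SMC5/6 to DNA damage, at 6.04 and 4.70 with 5.52 in vehicle. Nsmce4a, a subunit of SMC5/6, differed by 0.86 and Eid2 by 1.01, while Eid3 was the member at least 1.5-fold lower. Atf7ip (-0.57), Nsmce2 (-0.50) and Slf2 (-0.15) were also below 0. Against vehicle the list median was 0.30 for GSK 690693 and -0.27 for Compound C.

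The differences that came from the GSK 690693 side were few. Among genes that were farther from vehicle on that array, Adamts5, an aggrecan-cleaving protease gene, had the largest positive difference, at 8.52 with GSK 690693 and 6.69 with Compound C, against 5.93 with tofacitinib, 6.51 with doxorubicin and 6.07 with vehicle. Amot, which encodes the YAP-binding scaffold angiomotin, read 9.31 with GSK 690693 and 7.84 with Compound C, with 7.65 in vehicle. The selenophosphate synthetase gene Sephs2 (1.51), the lysosomal cystine transporter gene Ctns (1.44) and the chaperonin-like gene Bbs12 (1.40) came next. On the low side were Rgs2 and Atf3, followed by Ano3 (-1.45), Stc1 (-1.40), a secreted glycoprotein gene, and the gastrin gene Gast (-1.30). Stc1 read 8.13 with GSK 690693 and 9.53 with Compound C, against 8.27 with tofacitinib, 9.65 with doxorubicin and 8.99 with vehicle. In 13 genes GSK 690693 lay at least 1.5-fold above vehicle and Compound C at least 1.5-fold below it, among them Heatr3, H2ac20, Pcgf6, Ctns and Sephs2. In 10 genes GSK 690693 lay below vehicle and Compound C above it by that fold, among them Nr4a1, Nr4a2, Nr4a3, Per1, Atf3, Fas and Eda2r. Both compounds were at least 2-fold below vehicle in 30 genes and at least 2-fold above it in 6, counts in which the vehicle array is shared.

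The remaining lists lay close to the background or were shifted by small amounts. Cytosolic ribosomal protein genes were lower with GSK 690693 by any amount in 45 of 54, where 45.2% of all filtered genes were. Their median was -0.17, but 1 of them, Rps16 at -0.86, was at least 1.5-fold lower and 0 higher. The 66 oxidative phosphorylation genes centred on -0.17, and 2 of them were 1.5-fold or more lower. Lysosome and autophagy genes (-0.09 over 60), the NRF2 antioxidant list (-0.02 over 28) and glycolysis and hypoxia genes (-0.12 over 33) held between 1 and 3 members at least 1.5-fold lower. The hexokinase gene Hk2 (1.01) stood out from the last of these lists, at 8.63 with GSK 690693 and 7.62 with Compound C. Unfolded protein and heat shock genes (0.06 over 41) and tubulin and actin genes (0.03 over 26) turned negative on centring.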

How the data were processed

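Per the labels, RNA of 5 samples was labelled with biotin for 5 Affymetrix arrays. The values the authors deposited are a log2 signal for every probe set on every array, made with Affymetrix Expression Console 1.3.1.187 per the submitters' processing notes. The summarisation, background correction and normalization are not stated in the labels or the file, and the log2 scale was inferred from the values, which ran from 1.05 to 13.18. The table held 41345 probe sets, of which 23521 had 1 symbol in the platform annotation, 1814 several and 16010 none listed. Probe sets with several symbols were not analysed here. Each of 22180 genes was represented by its brightest probe set on average, and kept if the highest of its 5 values reached that array's median over single-symbol probe sets (5.37 to 5.44), which left 12311. No detection call was used, so differences of dim genes may be understated. Differences are GSK 690693 minus Compound C and no test was possible.

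The genes named are the 15 largest differences each way with a descriptive symbol, the 6 largest of each list, the 5 largest each way among genes for which GSK 690693 was farther from vehicle, and a fixed set of AMPK, AKT, BMP, FOXO, Nr4a and STING genes. Markers (such as Vim), motif holders (Creb5 and Id4) and Fos, Atf7ip, Nsmce2 and Slf2 were named after their values were seen. The comparison, its genes and the 25 gene lists were chosen with earlier results of these data known, and some genes are on more than 1 list. Alternatives were centring, quantile normalization, averaging of probe sets, other filters and other folds. The counting steps were tested on simulated data. Python 3.11.15, numpy 2.4.6, pandas 2.3.3 and matplotlib 3.10.9 were used. The number of arrays limits the precision.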

Additional observations from a re-analysis of the deposited data

How the results depend on the processing

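No paired analysis was possible because each group has 1 array and no result comes from a test. At 1.5-fold in place of 2-fold, 1375 genes were higher and 638 lower with GSK 690693 than with Compound C, and at 3-fold 37 and 36. Centring each array on the median of the filtered genes, an alternative chosen after seeing the data, gave 211 higher genes in place of 337, and the cause is the shift of 0.13 that this centring subtracts. It turned 7 list medians, to -0.08 for immediate early genes, -0.06 for NF-kB genes, -0.08 for PI3K, AKT and mTOR components, -0.03 for the STING list, -0.11 for tubulin and actin genes, -0.07 for unfolded protein and heat shock genes and -0.12 for YAP and matrix genes. Without the filter the AMPK list turned to 0.01. Of the other 17 of the 25 list medians, that of the NRF2 list was 0 with averaged probe sets, and the rest kept their sign under each alternative tried. The 2-fold counts moved by less than 1.5 times under quantile normalization (296 higher, 182 lower), averaged probe sets, centring on all single-symbol probe sets and 4 other filters. Of 93 named genes at least 2-fold apart, 83 stayed so under both centrings and quantile normalization and none changed sign under these or averaged probe sets. Averaging probe sets moved 9 named genes by more than 0.258, among them Ccn2 to 0.92, Irs1 to 0.52, Slc7a11 to -0.39 and Psmg2 to 1.13. Differences between dim signals are limited by unknown background.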
